A study of Mus musculus with 2 samples.

Results

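The forkhead (Fox) genes were taken from the array by mouse symbol, which is Fox, a subfamily letter, a number and at most 1 further letter. The symbols were reached through the RefSeq accession of each probe. Described here are 43 genes of 20281 named genes, in 18 subfamilies, read by 54 probes. The samples were 1 *Dullard*+/- and 1 *Dullard*-/- whole embryo of strain C57BL/6 at E7.5, with 1 one-colour Agilent array each. Both embryos carried a mutant *Dullard* allele, since the control was heterozygous, and no wild-type embryo was among the samples. The study made a full deletion and a *LacZ* allele of *Dullard* and gave embryos of both the same designation. The sources used here do not say which of them the arrayed embryos carried.

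Forkhead proteins are transcription factors that bind DNA through a winged-helix domain, and several of them can bind sites in closed chromatin. In the mouse gastrula, Foxh1 carries Nodal signals to the genome together with Smad proteins, Foxa2 is needed for the node and the definitive endoderm, and Foxc1 and Foxc2 act in paraxial mesoderm. Other members work in many tissues, among them Foxm1 in mitosis and the Foxo proteins downstream of insulin signalling.

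Of the 43 forkhead genes, 37 had at least 1 probe well above background on both arrays. On the scale used below, the log2 fold change is that of *Dullard*-/- over *Dullard*+/-, after the signal of each array was divided by the 75th percentile of its spots. Of the 37 genes, *Foxq1* (1 gene) exceeded 2-fold in favour of the *Dullard*-/- embryo, against a background of 0.894% of all 14770 genes measured. None of the 37 was lower by that much, where the background was 0.765%. At 1.5-fold, 4 genes were higher (background 3.92%) and 2 were lower (background 3.37%). The 4 were *Foxq1*, *Foxd3*, *Foxo6* and *Foxa2*, and the 2 were *Foxc1* and *Foxc2*. The other 31 lay within 1.5-fold. The 37 genes were centred near 0, with 18 above and 19 below and a median log2 fold change of -0.002. Over all genes the median was 0.01, and 52.0% lay above 0. With 1 embryo per genotype no test was possible, so every difference describes these embryos.

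The 75th percentile was 286 in the *Dullard*+/- and 264 in the *Dullard*-/- array. The error given after a log2 fold change comes from replicate spots of probes of like brightness, and leaves out the spread between embryos. The SD between replicate spots had a median of 0.19 over the 85 dimmest of 256 replicated probes and 0.046 over the 85 brightest. Different probes of a gene had an SD of 0.29, which is pooled over genes and so not directly comparable with those medians. Calls past 2-fold over all genes numbered 132 upward and 113 downward, so that 53.9% pointed upward, and 35.3% did so without scaling between arrays. *Dullard* itself (*Ctdnep1*) had a signal of 672 in the heterozygote and 144 in the homozygote (log2 fold change -2.11 ± 0.06). The place of its probe in the transcript is not known here.

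**Figure D1:**
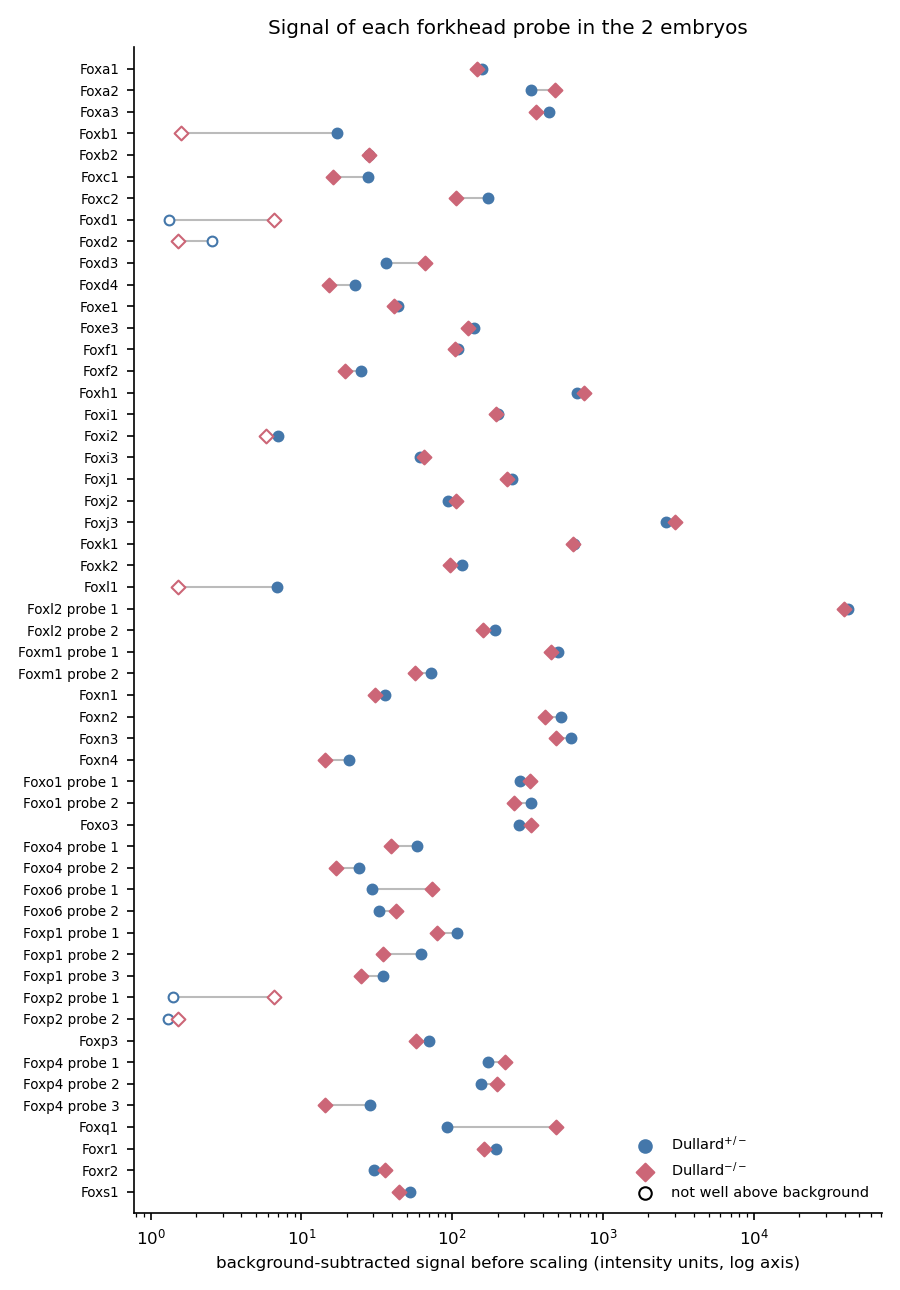
Background-subtracted signal (intensity units before scaling, log axis) of each forkhead probe in the *Dullard*+/- embryo (circles) and the *Dullard*-/- embryo (diamonds), 1 array each, with open symbols for signals not well above background. *Foxq1* spans the distance from 92.2 to 485, while most pairs of symbols lie close together.

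Sequence upstream of the start is shown for genes past 1.5-fold, so that their start regions can be read side by side. RefSeq entries of the GRCm38.p6 build were at hand for 28 of the 43 genes and for 3 of these 6, *Foxa2*, *Foxc1* and *Foxd3*. *Foxq1*, *Foxc2* and *Foxo6* had none. Each run gives the 250 bases before the start, 5′ to 3′ on the strand of the gene, and for *Foxa2* the first of the 3 starts in the table was taken. Capitals mark a match to any motif searched.
Foxa2, chr2:148046970-148047219, - strand: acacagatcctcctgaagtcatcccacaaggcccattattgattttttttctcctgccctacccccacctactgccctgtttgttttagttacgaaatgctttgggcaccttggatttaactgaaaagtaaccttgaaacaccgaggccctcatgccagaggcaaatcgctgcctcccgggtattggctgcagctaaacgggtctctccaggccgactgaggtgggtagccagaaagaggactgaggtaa
Foxc1, chr13:31806396-31806645, + strand: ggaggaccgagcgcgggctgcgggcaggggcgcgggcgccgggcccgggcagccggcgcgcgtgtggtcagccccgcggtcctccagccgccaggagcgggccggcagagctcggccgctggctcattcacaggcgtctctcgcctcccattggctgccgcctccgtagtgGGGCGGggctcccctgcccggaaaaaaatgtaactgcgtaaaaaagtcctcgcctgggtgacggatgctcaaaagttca
Foxd3, chr4:99656049-99656298, + strand: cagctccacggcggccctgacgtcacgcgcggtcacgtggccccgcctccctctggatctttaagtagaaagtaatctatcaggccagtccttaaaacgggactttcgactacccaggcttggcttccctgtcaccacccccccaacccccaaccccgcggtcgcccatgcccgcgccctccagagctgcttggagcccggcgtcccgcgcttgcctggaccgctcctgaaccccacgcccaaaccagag

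The motifs were searched on both strands, and no word of one motif is contained in a word of another. They were a forkhead core (TGTTTAC), a TCF/LEF word (CTTTGAT), a Smad palindrome (GTCTAGAC), a T-box core (TCACACC), a Foxh1 word (AATCCACA), a TATA box (TATAAA) and a GC box (GGGCGG). The only match in the 3 windows was 1 GC box upstream of *Foxc1*, a motif that 32.7% of all 32851 windows of this length hold. The forkhead core stands in 3.17% of all windows, the TCF/LEF word in 3.21%, the T-box core in 3.33%, the Foxh1 word in 0.718% and the Smad palindrome in 0.167%. The TATA box stands in 12.4%. The windows of *Foxc1* and *Foxd3* were rich in G and C, at 70.8% and 65.6%, and that of *Foxa2* had 50.8%, beside a median of 52.4% over all windows.

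*Foxq1*, a factor known from hair structure and from acid secretion in the stomach, showed the largest difference among the 37 genes. The *Dullard*+/- array read 92.2 and the *Dullard*-/- array 485. Scaled, the difference was 5.69-fold upward (log2 fold change 2.51 ± 0.07). *Foxq1* rests on 1 probe, so its error leaves out the difference between probes. The settings that change which probes count or how they are combined could not alter it. The difference stayed at least 2-fold upward under each of the other settings tried, where it ranged from 1.95 to 2.55. Of the dimmest 3693 genes of the array, 2.3% were higher by 2-fold or more, and 0 of the 8 forkhead genes among them were. With normexp background correction, which adds an offset of 50 and so pulls dim genes toward 0, *Foxq1* was at 1.95.

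The other 3 genes past 1.5-fold lay below 2-fold. *Foxd3*, which maintains the pluripotent epiblast and the neural crest, had signals of 36.2 and 65.6 and was 1.96-fold higher (0.97 ± 0.14). *Foxo6*, a member of the Foxo group best known from the brain, was 1.95-fold higher as the mean of its probes (0.96 ± 0.11). Its probes disagreed in size, from 29.3 to 73.0 in one (1.43) and from 32.7 to 42.6 in the other (0.49). *Foxd3* and *Foxo6* are the genes just short of 2-fold, and both passed it with cyclic loess, at 1.03 each. *Foxd3* also passed it with the array median as the scale (1.01), and *Foxo6* with its brightest probe (1.43) or the mean of linear folds (1.04). With normexp both were inside 1.5-fold, *Foxd3* at 0.52 and *Foxo6* at 0.51.

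Among the Foxa genes, which open chromatin in endoderm, *Foxa2* alone was past 1.5-fold. It rests on 1 probe, with signals of 334 and 478 and a log2 fold change of 0.63 ± 0.06. A further *Foxa2* probe was left out because the scanner software marked its spot as an outlier. That spot read 3973 and 6197, a log2 fold change of 0.75, and with it *Foxa2* was at 0.69. *Foxa2* was inside 1.5-fold without scaling (0.52) and with normexp (0.54). *Foxa1* read 158 and 146 (0.004 ± 0.08), and its sign turned under 3 of the 5 other scalings. *Foxa3*, a liver factor, read 440 and 358 (-0.18 ± 0.06). The 3 Foxa genes therefore went different ways, with a subfamily median of 0.004.

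Most measured genes of a list for the node and the definitive endoderm were higher, as *Foxa2* was, though several lay near 0. The node genes *Chrd* and *Nog* were among those near 0, and *Shh* and *Noto* had no fold change. Of 12 listed, 10 were measured. Of these, 1 passed 2-fold upward and none downward, and the median log2 fold change was 0.44. *Gsc*, an organizer gene, was at 2.81, *Otx2* at 0.82, *Hhex* at 0.77 and *Cer1* at 0.75. Near 0 were *Chrd* (0.06 ± 0.10), *Nog* (0.10 ± 0.18) and *Krt19* (0.10 ± 0.07), and *Cdx2* was the 1 lower gene (-0.19). Summed signals, here and below, were taken over all probes of a list before scaling. The 75th percentile was 286 in the *Dullard*+/- and 264 in the *Dullard*-/- array. The summed signal of the list was 10901 in the *Dullard*+/- and 16388 in the *Dullard*-/- embryo. Most of that difference came from *Cer1* (5493 and 8523) and *Otx2* (2277 and 3721). *Shh* was not well above background in either embryo, and *Noto* was so only in the *Dullard*+/- embryo. In RNA of whole embryos, more cells of a type and more RNA per cell cannot be told apart. The part of this tissue in the *Foxa2* value was not tested.

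*Foxh1*, the partner of Smad2 and Smad3 in the Nodal response, read 669 and 749, a log2 fold change of 0.28 ± 0.05. It kept its sign under every setting tried and ranged from 0.16 to 0.31, but most settings could not have turned it. *Foxh1* has 1 probe, which the settings on probes cannot alter, and no scaling shifts all genes alike by less than its value. Of 16 genes of the Nodal pathway and of Foxh1 targets, all were measured, 3 passed 2-fold upward and none downward, with a median of 0.49. The 3 were *Gsc*, *Lefty1* (2.19), an inhibitor of Nodal, and *Mixl1* (1.39), a gene of the streak. *Nodal* itself rested just below 2-fold, with signals of 165 and 306. Of the intracellular members, *Smad2* was at 0.02, *Smad4* at 0.22 and *Smad3* at -0.37 ± 0.11. The *Smad3* value is the mean of 2 probes, whose mean signals of 319 and 290 differed by less than that value. *Gsc*, *Lhx1* and *Cer1* stand on both this list and the endoderm list.

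*Foxj1*, the master regulator of motile cilia, read 250 and 231 and was at -0.002 ± 0.07. Its sign turned with the array median as the scale. Of 12 genes of node cilia, 8 were measured and none was past 2-fold in either direction, with a median of 0.06 that fell to -0.05 without scaling. They went both ways, with *Dnaic1*, a dynein arm gene, at 0.68 and the tektins *Tekt1* and *Tekt2* at -0.61 and -0.78. *Foxj2* (0.30 ± 0.09) and *Foxj3* (0.31 ± 0.05) were both higher. *Foxj3* was bright, at 2626 and 3010.

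Both Foxc genes, which act in somites and in the heart, were lower in the *Dullard*-/- embryo. *Foxc2* read 173 and 105, 1.51-fold lower (-0.60 ± 0.08), and *Foxc1* read 27.7 and 16.1, 1.58-fold lower (-0.66 ± 0.23). Both kept their sign under every setting tried, yet neither was past 1.5-fold with normexp, at -0.42 and -0.15, and each was inside it in 1 further scaling. *Foxc1* was at -0.55 with loess, and *Foxc2* at -0.56 when arrays were scaled to their medians.

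Among 12 genes of paraxial mesoderm, 11 were measured, of which none passed 2-fold upward and 2 did so downward. The median was -0.31. The 2 were *Msgn1* (-1.88), a transcription factor of the presomitic mesoderm, and *Dll1* (-1.14), a Notch ligand. *Lfng*, which modifies Notch, was just short of 2-fold, with signals of 212 and 98.3, and *Mesp2*, a segmentation gene, was higher at 0.80. The summed signal of the list before scaling was 1948 in the *Dullard*+/- and 1662 in the *Dullard*-/- embryo. *Meox1* was above the background limit solely in the *Dullard*+/- embryo. The part of this tissue in the Foxc values was not tested.

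The Foxf genes of lateral and extraembryonic mesoderm lay near 0. *Foxf1*, needed in the allantois, read 110 and 105 (0.05 ± 0.09), and its sign turned without scaling. *Foxf2* read 24.7 and 19.5 (-0.23 ± 0.23), a difference the size of its error. Of 12 genes of the allantois and lateral plate, 8 were measured and none was past 2-fold, with a median of -0.03 that rose to 0.02 with normexp. *Kdr* and *Gata4*, markers of vascular and cardiac precursors, were both at 0.64. *Ahnak* was at -0.36 and *Hand2* at 0.39. Their summed signal was 6924 and 7079, with *Tbx4*, *Vcam1*, *Postn* and *Nkx2-5* not well above background in either embryo.

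**Figure D2:**
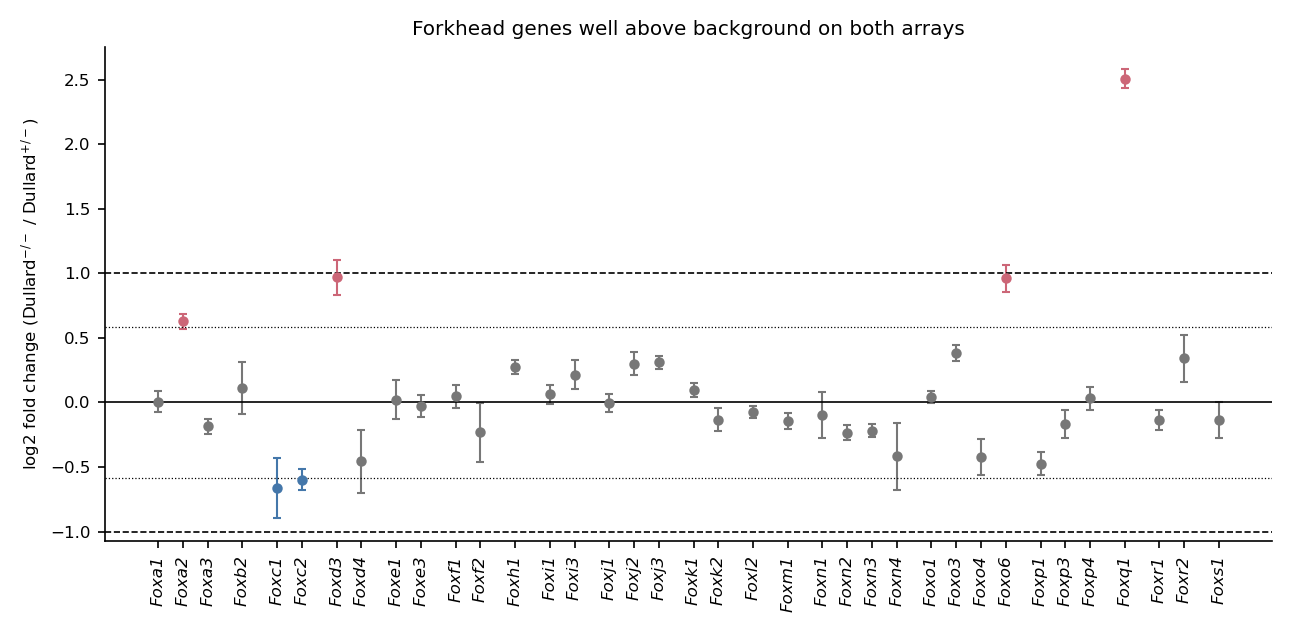
Log2 fold change (*Dullard*-/- over *Dullard*+/-) of the 37 forkhead genes measured on both arrays, ordered by subfamily, with 1 embryo per genotype and error bars from replicate spots. Dashed lines mark 2-fold and dotted lines 1.5-fold. *Foxq1* at 2.51 lies above the upper dashed line, and *Foxc1* at -0.66 is the lowest gene.

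Several forkhead genes lie beside each other in the genome, and the order of protein-coding genes in RefSeq was used to compare neighbours. There were 3 such clusters with 8 forkhead genes, where members were at most 2 genes apart. On chromosome 13, *Foxq1* (2.51) is followed by *Foxf2* (-0.23) and *Foxc1* (-0.66). *Foxq1* and *Foxc1* had the highest and the lowest log2 fold change of the 37 measured genes. With quantile normalization, cyclic loess and normexp, *Foxc2* on chromosome 8 was lower than *Foxc1*. *Foxb1*, on chromosome 9, had no fold change and was at least 2.18-fold lower. Next to *Foxq1* lies *Hus1b*, which was not well above background in either embryo, and beyond it *Exoc2* at -0.03. *Gmds*, on the side of *Foxc1*, was at 0.32.

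On chromosome 8, *Foxf1* (0.05) stands beside *Mthfsd* (-0.37), *Foxc2* (-0.60) and *Foxl1*. *Foxl1*, a factor of gut mesenchyme, was above the background limit solely in the *Dullard*+/- embryo, at 6.88 against 1.52. On chromosome 4, *Foxe3*, a lens factor, read 140 and 127 (-0.03 ± 0.08, above 0 when scaled to the array median), beside *Foxd2*, which was not well above background.

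**Figure D3:**
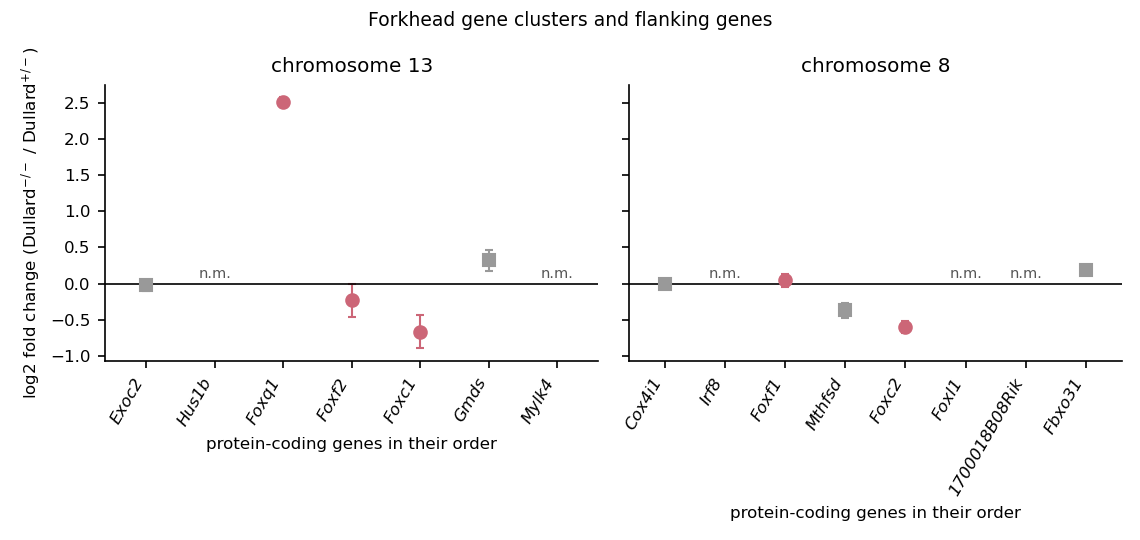
Log2 fold change (*Dullard*-/- over *Dullard*+/-) of protein-coding genes in their genomic order around the forkhead clusters of chromosomes 13 and 8, with forkhead genes as circles, other genes as squares and error bars from replicate spots. Genes without a value on both arrays are marked n.m., and *Foxq1* stands at 2.51 next to *Foxf2* at -0.23.

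The other 6 forkhead genes had no fold change. *Foxb1*, a factor of the diencephalon, read 17.1 in the *Dullard*+/- embryo and was not well above background in the *Dullard*-/- embryo, at 1.59. Set against the lowest signal well above background there, it was at least 2.18-fold lower. *Foxi2* (6.99 and 5.82) and *Foxl1* were likewise measured in the heterozygote alone, and lay too close to the limit of that array for a bound. These 3 of 43 genes, *Foxb1*, *Foxi2* and *Foxl1*, stand against 4.45% of all named genes. No forkhead gene was above the background limit solely in the *Dullard*-/- embryo (0 of 43, against 0.749% of all named genes). *Foxd1* (1.33 and 6.54), *Foxd2* (2.56 and 1.52) and *Foxp2*, a gene of brain and lung, were not well above background on either array. That is 3 of 43 genes, against 21.9% of all named genes, and the *Foxp2* probes read 1.40 and 6.55, and 1.30 and 1.51.

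The forkhead genes with neural roles went different ways. *Foxb1*, *Foxd4* and *Foxn4* were lower and *Foxb2* was near 0. *Foxd3* and *Foxo6*, named above for the neural crest and the brain, were higher (0.97 and 0.96). Beside *Foxb1*, *Foxb2* read 28.2 in both embryos (0.11 ± 0.20, at -0.001 without scaling), and *Foxd4* read 22.7 and 15.3 (-0.46 ± 0.24). *Foxn4*, which acts in retinal progenitors, read 20.8 and 14.4 (-0.42 ± 0.26). With normexp *Foxd4* was at -0.03 and *Foxn4* at -0.06. Of 12 genes of the anterior neural plate, 8 were measured and none was past 2-fold, with a median of 0.24. *Otx2* was at 0.82, *Hesx1* at 0.62, *Sox2* at 0.44 and *Lhx2* at -0.66. The summed signal of that list was 3256 in the *Dullard*+/- and 4783 in the *Dullard*-/- embryo. Most of that difference came from *Otx2*, which is on the endoderm list too, and without it the sums were 979 and 1062. *Pax6*, *En1* and *Nkx2-1* were not well above background in either, and *Lhx5* only in the *Dullard*+/- embryo. The part of this tissue in the values of these forkhead genes was not tested.

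The Foxo proteins are held in the cytoplasm when insulin signalling is active. *Foxo1* had probes that disagreed, from 280 to 330 in one (0.35) and from 332 to 256 in the other (-0.26). Their mean of 0.04 ± 0.05 turned negative without scaling. *Foxo3* read 278 and 335 (0.38 ± 0.06), and both probes of *Foxo4* were lower (-0.46 and -0.39). The subfamily median was 0.21, over 3 higher genes and 1 lower gene. Of 15 genes known as Foxo targets, all were measured, 1 passed 2-fold upward and 1 downward, with a median of 0.12. They were *Pik3ip1* (1.24), an inhibitor of PI3 kinase, and *Klf2* (-1.16), a zinc-finger factor. *Bcl6* was at 0.61 and *Sesn3* at -0.52.

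*Foxm1*, which drives the genes of the G2 and M phases, read 506 and 450 in one probe and 72.1 and 56.9 in the other, with a mean of -0.14 ± 0.06. Of 13 mitotic genes under its control, 12 were measured, and none was past 1.5-fold. Their median was 0.05, and -0.06 without scaling. The extremes were *Cenpf* at 0.24 and *Cenpa* at -0.17, with *Kif20a* at 0.18 and *Nek2* at 0.16.

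The Foxn and Foxp genes lay mostly below 0. All 4 Foxn genes were lower, with a median of -0.23. They kept their sign under the 5 other scalings, but those that shift all genes nearly alike, such as no scaling, could not have turned it. *Foxn2* read 524 and 412 (-0.24 ± 0.06) and *Foxn3*, a repressor, 608 and 484 (-0.22 ± 0.05). *Foxn1*, the gene of the nude mouse and of thymic epithelium, read 35.6 and 30.8 (-0.10 ± 0.18), within its error. *Foxp1*, a repressor in heart and lymphoid cells, was lower in all 3 probes, from -0.72 to -0.32, with a mean of -0.47 ± 0.09. *Foxp3*, the factor of regulatory T cells, read 69.9 and 57.6 (-0.17 ± 0.11).

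*Foxp4* was the gene whose probes differed most, by 2.61-fold. Of its 3 probes, those that read 172 and 225, and 155 and 199, were higher (0.51 and 0.47). The other carries another RefSeq accession and read 28.3 and 14.2 (-0.88). The mean of 0.03 ± 0.09 stands for neither, and it was negative without scaling.

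The remaining genes lay within 1.5-fold. *Foxl2*, a factor of the ovary, had a bright probe at 42047 and 39498 (0.02) and a further probe at 193 and 159 (-0.17). *Foxk1* read 639 and 631 (0.09 ± 0.06) and *Foxk2* 115 and 97.0 (-0.13 ± 0.09). *Foxi1*, of the inner ear and kidney, read 201 and 194 (0.06 ± 0.07), and *Foxi3* 60.7 and 65.2 (0.22 ± 0.11). *Foxe1*, a thyroid factor, read 43.5 and 40.8 (0.02 ± 0.15). *Foxr1* (193 and 163) was at -0.13 ± 0.08 and *Foxr2* (30.5 and 35.7) at 0.34 ± 0.19. *Foxs1*, expressed in neural crest derivatives and pericytes, was at -0.14 ± 0.14. In 11 of the 37 genes the log2 fold change was smaller than its error, a share that was not counted over all genes.

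The sign of the genes nearest 0 depended on the scaling. Under the 5 other scalings, 27 of the 37 genes kept their sign, and 10 took the other sign in at least 1 of them. Those 10 were *Foxa1*, *Foxb2*, *Foxe1*, *Foxe3*, *Foxf1*, *Foxi1*, *Foxj1*, *Foxk1*, *Foxo1* and *Foxp4*. These shares were not counted over all genes. Without scaling, 10 genes lay above 0, and the median of all genes moved from 0.01 to -0.10. None of the 6 genes past 1.5-fold changed sign under any setting tried, but most settings could not have turned it. The array median, no scaling and the deposited table shift all genes nearly alike, by less than 1.5-fold. The settings on probes cannot alter a gene with 1 probe, as most of the 6 are.

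**Figure D4:**
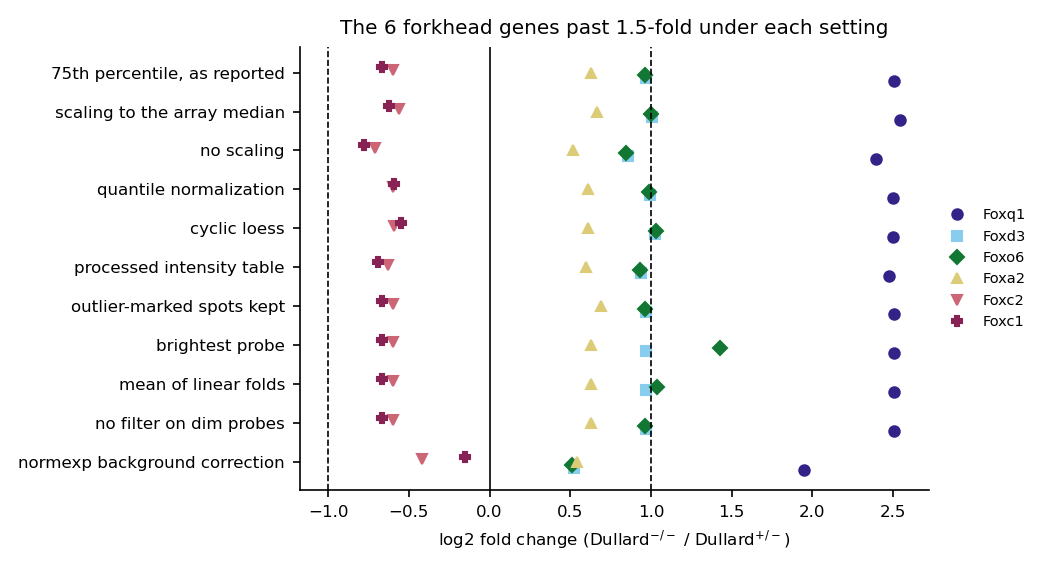
Log2 fold change (*Dullard*-/- over *Dullard*+/-) of the 6 forkhead genes past 1.5-fold under the reported setting and 10 others, with dashed lines at 2-fold. *Foxq1* lies to the right of 2-fold in each row, and *Foxc1* and *Foxc2* stay left of 0.

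Markers of tissues within and around the embryo were read beside the forkhead genes. Of 10 decidua genes, 6 were measured and none was past 2-fold (median 0.01, and -0.10 without scaling, summed signal 3068 and 2795). *Angpt2* was at -0.87, and *Prl8a2*, *Dcn* and *Hoxa10* were not well above background in either embryo. *Hoxa11* was above the background limit solely in the *Dullard*-/- embryo, at 20.9. Of 10 trophoblast genes, 7 were measured, 1 passed 2-fold upward and none downward (median -0.10, summed signal 3029 and 2774). *Prl3d1* was at 1.07 and *Ascl2* at -0.74. All 10 visceral endoderm genes were measured, none was past 2-fold, and their median was 0.05, and -0.06 without scaling (summed signal 49891 and 46311). *Gata6* was at 0.68 there. Of 8 genes of red blood cells, 4 were measured and all 4 were lower, 2 of them at least 2-fold, with a median of -1.12 (summed signal 833 and 343). *Hbb-bh1*, an embryonic globin, was at -2.08 and *Gata1* at -1.30. These sums were taken before scaling, and the *Dullard*-/- array had the lower 75th percentile (264 against 286). The part of these tissues in the forkhead values was not tested.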

How the data were processed

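The authors extracted spot intensity values with background subtraction in Agilent Feature Extraction 10.10 and deposited 1 scanner file per embryo and a table of processed intensity values. The paper and the labels differ on RNA input and amplification kit. Per the file headers, the other columns used are flags (well above background, outlier, saturated). The main value is log2 of the background-subtracted signal over the 75th percentile of 43020 non-control spots. Outlier marks removed 206 spots, and 0 spots were saturated. A gene is the mean of those of its probes that both arrays measured well above background. The error is the pooled SD of the 40 replicated probes nearest in signal, over the root of the gene's probe number. A bound is set against the dim array's lowest signal that passed as well above background, or the probe's own if higher. Depth does not apply to arrays, and their number, 1 per genotype, limits the precision. The deposited table equals the signal times a constant per array (4.91 and 5.20), with medians of 189 and 181, whose basis the sources used here do not state. Symbols came from RefSeq (GRCm38.p6) through unversioned accessions, which named 30235 spots and left 12785 unnamed. The array design uses an older build, so gene positions served only for order.

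Every forkhead gene may be named, except that 1 gene is not reported here and enters no count of members. Those past 1.5-fold, above background on 1 array alone, with disagreeing probes or among the brightest are given in full. Up to 4 genes of each other list are given, and a few more of the endoderm and Nodal lists. The members and lists were chosen with earlier results of these data known. The 1.5-fold counts under other settings were added after seeing the data. Alternatives were 4 other scalings (array median, none, quantile, cyclic loess with span 0.7), the deposited table, normexp (offset 50), the brightest probe, no filter on dim probes, the mean of linear folds and outlier-marked spots kept. The steps were tested on simulated data. Python 3.11.15, numpy 2.4.6, pandas 2.3.3, matplotlib 3.10.9, R 4.3.3 and limma 3.58.1 were used.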

Additional observations from a re-analysis of the deposited data

How the results depend on the processing

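The scanner files hold no mean signal, so normexp ran on median signals. With normexp 1 forkhead gene passed 1.5-fold upward and 0 downward. With cyclic loess 3 genes passed 2-fold upward and 1 passed 1.5-fold downward, and with scaling to the array median 2 passed 2-fold upward and 1 passed 1.5-fold downward. With the brightest probe 2 passed 2-fold upward, and likewise 2 with the mean of linear folds. Without a filter on dim probes, over 43 genes, 3 passed 2-fold upward and 2 downward, and 5 passed 1.5-fold downward. Without scaling 3 genes passed 1.5-fold upward and 3 downward, the family median was -0.11, and that of all genes moved from 0.01 to -0.10. When a signal counted as measured by its significance over background, 0 forkhead genes were unmeasured on both arrays, in place of 3. The share of all named genes was not counted under that rule, so this count has no background beside it. Over all genes, calls past 2-fold numbered 132 higher and 113 lower as reported, and 11 and 6 with normexp. They numbered 156 and 93 with loess, 152 and 105 with the array median, and 90 and 165 without scaling. With the brightest probe they were 139 and 124, with linear folds 138 and 109, and without the filter 484 and 778. Past 1.5-fold, all genes were counted under the reported setting alone, so the forkhead counts at 1.5-fold under other settings have no background beside them. For 15 genes and 12 subfamilies the alternatives gave 270 values, of which 93 were identical to the reported ones, many because a setting cannot alter a gene with 1 probe. Of the 177 that changed, 130 did so by less than their error and 47 by more. The sign changed in 0 values past 1.5-fold, which most settings could not have brought about. The cause was not tested, except that normexp's offset pulls dim genes toward 0 and that leaving out the filter adds genes. No paired analysis was possible because each genotype has 1 embryo, and for the same reason no replicate could be left out.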
